A study of Mus musculus with 4 samples.

Results

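Small leucine-rich proteoglycans are a family of matrix proteins, and 7 of their genes were taken by symbol from the 27998 genes of the expression tables: Dcn, Bgn, Aspn, Lum, Fmod, Omd and Ogn. All 7 were found once each and are described across all 4 single-cell libraries of the study. The libraries came from ICR mouse embryos at embryonic day 12 and hold parotid epithelium, submandibular epithelium, parotid mesenchyme and submandibular mesenchyme. About 10 glands of each kind were pooled, and epithelium and mesenchyme were pulled apart with Dispase II before cells were captured on the 10x Chromium system. The labels name no allele or treatment for any group. Each group is 1 library, so no difference below has a replicate check, and every interval is a 95% interval that covers counting error only.

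A small leucine-rich proteoglycan has a short core protein made of leucine-rich repeats, which binds collagen fibrils and growth factors of the TGF-beta family, and most members carry glycosaminoglycan chains. The family is sorted into classes by core sequence. Decorin (Dcn) and biglycan (Bgn) belong to the first class, carry chondroitin or dermatan sulphate chains and bind TGF-beta, and asporin (Aspn) is their relative with a stretch of aspartic acids and usually no chain. Lumican (Lum), fibromodulin (Fmod) and osteomodulin (Omd) belong to the second class, which carries keratan sulphate, and osteoglycin (Ogn, also mimecan) belongs to the third. In embryonic organs these genes are known mainly from fibroblasts, tendon, cartilage, bone and cornea.

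The files held 15351 cell barcodes, and 14884 were kept, with median totals of 5520.5 to 9578 unique molecular identifiers (UMIs, counts of captured mRNA molecules) per kept cell in a library. Cells were clustered in each library without the 7 genes and without 12 other genes of the family. Clusters were named from fixed marker genes, and 57 of 59 could be named. Most cells of each library were named as its labelled tissue. The marker score had been changed after a first score misnamed epithelial clusters, so this is no independent check of the labels. The epithelial-like class took 94.3% of cells in parotid epithelium and 96.0% in submandibular epithelium. In the mesenchyme libraries, the mesenchymal-like class took 88.5% of parotid and 87.2% of submandibular cells. Pairs of libraries shared 10 to 34 barcodes, at most 0.802% of the smaller library. Levels are given as UMIs per 1000000 UMIs of a cell class (CPM), and are compared between groups of cells for 1 gene at a time, not between genes.

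The first-class genes were most abundant in mesenchyme. Dcn had 568 CPM (559 to 578) in parotid mesenchymal-like cells, 272 CPM (265 to 278) in submandibular mesenchymal-like cells, 41.3 CPM (37.9 to 44.9) in parotid epithelial-like cells and 0.209 CPM (0.0903 to 0.412) in submandibular epithelial-like cells. The last value rests on 8 UMIs in 3616 cells, and the 4 intervals were apart. Bgn, which also binds collagen and growth factors, kept the same order: 90.7 CPM (87.0 to 94.7), 63.1 CPM (60.0 to 66.3), 10.7 CPM (8.96 to 12.6) and 2.06 CPM (1.63 to 2.57). Aspn had 7.56 CPM (6.49 to 8.75) in parotid and 9.66 CPM (8.47 to 10.98) in submandibular mesenchyme. Not 1 Aspn UMI was seen in either set of epithelial-like cells, where 3 UMIs would have been 0.227 CPM in parotid and 0.0784 CPM in submandibular cells.

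Of the second class, Lum followed the order of Dcn. It had 769.8 CPM (759 to 781) in parotid mesenchyme, 372 CPM (364 to 379) in submandibular mesenchyme, 1.74 CPM (1.101 to 2.61) in parotid epithelium and 0.105 CPM (0.0285 to 0.268) in submandibular epithelium. Fmod, which guides collagen fibril assembly, had the opposite order of tissues. Its level was 15.5 CPM (13.4 to 17.8) in parotid epithelium and 1.28 CPM (0.947 to 1.69) in submandibular epithelium, against 1.86 CPM (1.35 to 2.49) and 0.247 CPM (0.0905 to 0.537) in the mesenchyme of the same glands. The interval of submandibular epithelium overlapped that of parotid mesenchyme, parotid epithelium stood above both, and submandibular mesenchyme below both. Omd, best known from bone, gave 28 UMIs in parotid mesenchyme (1.18 CPM, 0.785 to 1.71), 12 in submandibular mesenchyme (0.493 CPM, 0.255 to 0.862) and 0 in both epithelia.

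Ogn, the third-class gene, had 41.0 CPM (38.5 to 43.7) in parotid mesenchyme and 19.9 CPM (18.2 to 21.8) in submandibular mesenchyme. Its 15 UMIs in parotid epithelium (1.13 CPM, 0.634 to 1.87) lay in 15 different cells, and the 3616 submandibular epithelial-like cells held 1 UMI between them.

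**Figure D1:**
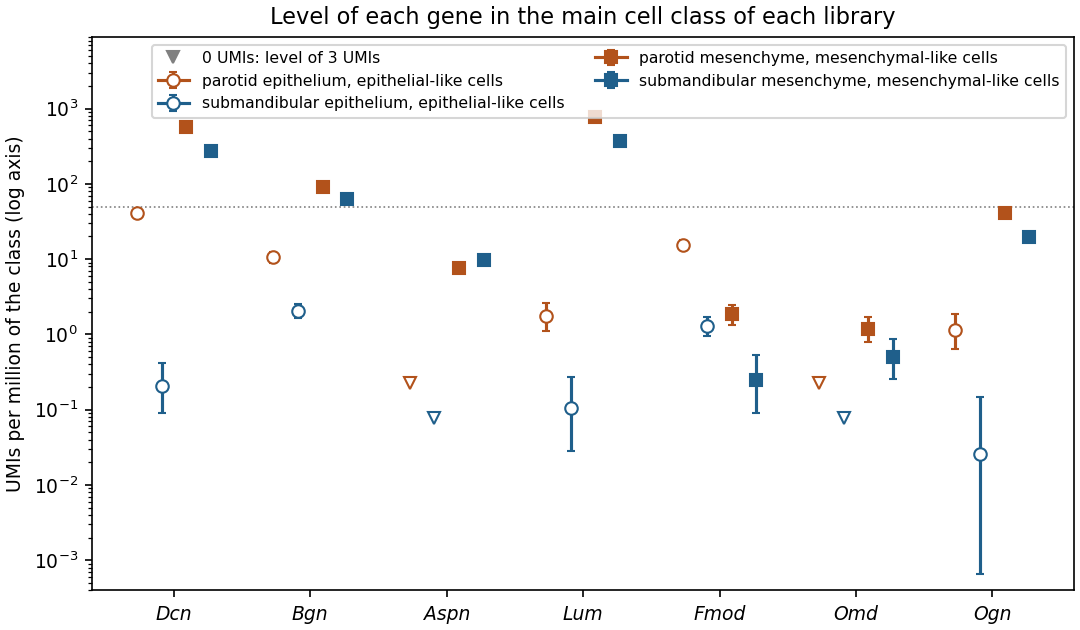
Level of each gene, in CPM on a log axis, in the main cell class of the 4 libraries, with 95% Poisson intervals; triangles mark the level of 3 UMIs where none was counted, and the dotted line marks 50 CPM. Filled mesenchymal squares lie above open epithelial circles for Dcn, Bgn, Lum and Ogn, while for Fmod the parotid epithelial circle at 15.5 CPM is the highest point.

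Tissue against tissue within a gland, a gene was called different where the higher side had at least 50 CPM and the levels differed at least 2-fold. In the parotid gland, 3 members reached 50 CPM (Dcn, Bgn and Lum) and all 3 were higher in mesenchyme. Of 3280 genes tested, 9.3% were called higher in mesenchyme, 6.4% higher in epithelium and 15.7% in either direction. Dcn was 13.8-fold (12.6 to 15.01), Bgn 8.52-fold (7.18 to 10.2) and Lum 443-fold (295 to 699) higher in mesenchyme. In the submandibular gland the same 3 were called higher in mesenchyme. There, 13.2% of 3458 genes were called higher in mesenchyme, 9.46% higher in epithelium and 22.6% in either direction. The folds were 1299.8 (659 to 3012) for Dcn, 30.6 (24.4 to 38.8) for Bgn and 3554 (1388 to 13048) for Lum. The median log2 ratio of the 3 tested members was 3.78 in parotid and 10.34 in submandibular glands, where all tested genes had medians of 0.01 and -0.03. Scaling by the trimmed mean of M-values (TMM) lowered all submandibular log2 ratios by 0.28 and moved the share of submandibular calls that were higher in mesenchyme from 58.2% to 36.0%, with the 3 members still called. The submandibular epithelium library also held 22 mesenchymal-like cells with 82 Dcn and 224 Lum UMIs, outside the epithelial-like class. Every kept barcode of a library was also used in place of the named classes. The submandibular log2 ratios then went to 6.53 for Dcn, 4.52 for Bgn and 5.64 for Lum. The parotid ones went to 3.43 for Dcn, 2.84 for Bgn and 6.90 for Lum. In cells with 1000 or more genes and up to 5% mitochondrial UMIs, the parotid log2 ratios were 4.18, 3.51 and 8.67. In the main setting they were 3.78, 3.09 and 8.79.

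The 4 members under 50 CPM are described by size alone. Ogn was 36.2-fold (21.8 to 64.9) higher in parotid mesenchyme than in parotid epithelium and 763-fold (136 to 30202) higher in submandibular mesenchyme than in submandibular epithelium. Against the level of 3 UMIs in the epithelial class, Aspn was at least 33.3-fold higher in parotid and at least 123-fold higher in submandibular mesenchyme, and Omd at least 5.22-fold and at least 6.29-fold higher. Fmod was 8.34-fold (5.996 to 11.8) lower in parotid mesenchyme and 5.19-fold (2.22 to 14.8) lower in submandibular mesenchyme than in the epithelium. It was the 1 member of 7 with more transcript in epithelium in both glands. The submandibular value rests on few mesenchymal UMIs. In cells with 1000 or more genes and up to 5% mitochondrial UMIs, its log2 ratio was -1.29 (-3.28 to 0.26), an interval that includes no difference.

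Members were also counted in the smaller cell classes of the mesenchyme libraries. Bgn reached 109 CPM (85.1 to 138) in the 63 parotid and 102 CPM (85.2 to 121) in the 139 submandibular endothelial-like cells. In parotid mesenchyme this interval overlapped that of the mesenchymal-like cells, and in submandibular mesenchyme it lay above. Erythroid-like cells of the same libraries, which should lack the gene, had 3.39 and 1.1 CPM. Bgn was also counted in submandibular chondrogenic-like cells (56.4 CPM, 34.5 to 87.2) and neural crest and glial-like cells (27.1 CPM, 19.4 to 36.7). Ogn had 10.5 CPM (7.42 to 14.4) in parotid and 16.3 CPM (10.8 to 23.6) in submandibular skeletal muscle-like cells, against 0.849 and 1.1 CPM in erythroid-like cells. The parotid muscle-like cells formed 2 clusters, and Ogn had 32.3 CPM (20.0 to 49.4) in the 48 cells led by the contractile genes Mylpf, Myl1 and Acta1 and 5.71 CPM (3.33 to 9.15) in the 186 cells led by Msc, Myf5 and Myod1.

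Dcn was lower in these classes than in mesenchymal-like cells. In parotid endothelial-like, skeletal muscle-like and erythroid-like cells Dcn lay between 16 and 17.4 CPM, and in the submandibular counterparts between 6.41 and 9.26 CPM, a like low level in each library. Submandibular chondrogenic-like cells stood higher, with 45.2 CPM (25.8 to 73.3) of Dcn from 16 UMIs, 9 of them in 1 cell. Lum had 63.4 CPM (45.3 to 86.3) in parotid endothelial-like cells from 40 UMIs, 14 of them in 1 cell, against 21.2 CPM (13.7 to 31.3) in erythroid-like and 20.7 CPM in skeletal muscle-like cells. In submandibular mesenchyme Lum had 31.0 CPM (15.5 to 55.5) in chondrogenic-like, 20.5 CPM (13.9 to 29.1) in neural crest and glial-like and 20.1 CPM (13.1 to 29.4) in endothelial-like cells. Erythroid-like cells there had 10.5 CPM (6.29 to 16.3), and 18 of the 31 Lum UMIs of the neural crest and glial-like class lay in 1 cell.

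Parotid mesenchyme held more Dcn and Lum than submandibular mesenchyme. Of the 3 members that reached 50 CPM, 2 were called higher in parotid and 0 higher in submandibular mesenchyme. Among 3266 genes tested, 3.58% were called higher in parotid, 3.98% higher in submandibular mesenchyme and 7.56% in either direction. Dcn was 2.09-fold (2.03 to 2.15) and Lum 2.07-fold (2.02 to 2.13) higher in parotid. Bgn was 1.44-fold (1.35 to 1.54) higher, which missed the 2-fold rule. The median log2 ratio of submandibular over parotid levels was -1.05 for these 3 members and -0.02 for all genes tested. TMM scaling moved all ratios by -0.12 and the share of calls that were higher in submandibular mesenchyme from 52.6% to 41.9%, and the 2 calls stayed.

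Both calls sat close to the 2-fold line. A stricter cell filter (1000 or more genes and up to 5% mitochondrial UMIs) gave Dcn a log2 ratio of -1.14 and brought Lum to -0.76, so that 1 member remained called. Under this filter, 109 of 3250 genes were called higher in parotid and 119 higher in submandibular mesenchyme. That restriction kept 82.4% of the parotid and 41.4% of the submandibular mesenchymal-like cells, since 17.6% and 58.6% of them had more than 5% mitochondrial UMIs. Its part in the gland ratios was not tested. With each cluster weighted equally, an alternative chosen after the data were seen, Dcn was 2.096-fold and Lum 1.999-fold higher in parotid, and only Dcn passed the rule.

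The members under 50 CPM did not all follow Dcn. Ogn was 2.06-fold (1.84 to 2.30), Omd 2.40-fold (1.18 to 5.17) and Fmod 7.53-fold (3.20 to 21.6) higher in parotid mesenchyme, the last from 44 against 6 UMIs. Aspn was 1.28-fold (1.05 to 1.56) higher in submandibular mesenchyme. With clusters weighted equally, Ogn was 1.49-fold and Omd 1.45-fold higher in parotid.

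The share of cells with these transcripts also differed between the glands. With every cell thinned to 3000 UMIs, 71.3% (69.9 to 72.8) of parotid and 39.8% (38.3 to 41.3) of submandibular mesenchymal-like cells had a Dcn UMI, compared with 84.5% and 49.8% before thinning. Erythroid-like cells of the same libraries, at median depths of 16904 and 17195 UMIs against 5561.5 and 5272 in mesenchymal-like cells, had a Dcn UMI in 2.90% and 1.89% of thinned cells. For Lum, 73.7% (72.3 to 75.1) of parotid and 37.8% (36.4 to 39.4) of submandibular thinned cells had a UMI. No UMI of any member was found in 7.43% of thinned parotid cells and in 35.0% of thinned submandibular cells, and UMIs of exactly 2 members in 47.8% and 24.2%. Thinning left out 115 parotid and 147 submandibular cells with fewer UMIs.

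The chromosome 10 neighbours of Dcn and Lum differed between the glands in size and direction. On chromosome 10 of mm10 (GRCm38), Dcn (97479609 to 97518143) is followed by Lum (97565128 to 97572703), by Kera (97606879 to 97613692), which encodes the corneal proteoglycan keratocan, and by Epyc (97644068 to 97682454), which encodes epiphycan of cartilage. All 4 lie on the plus strand with gaps of 47.0, 34.2 and 30.4 kb between them. Kera had 177 CPM in parotid and 18.5 CPM in submandibular mesenchyme, a 9.57-fold difference (8.68 to 10.6) that was larger than those of Dcn and Lum and in the same direction. Epyc went the other way, with 0.211 CPM from 5 UMIs in parotid and 10.6 CPM from 258 UMIs in submandibular mesenchyme, 50.3-fold (21.3 to 156) higher in the latter. Kera ranged from 34.6 to 376 CPM over parotid and from 0.471 to 46.7 CPM over submandibular mesenchymal-like clusters. Epyc was at or under 1.37 CPM in each parotid cluster and between 0.942 and 27.5 CPM in the submandibular ones. Of the 12 other family genes, Kera alone reached 50 CPM in mesenchyme.

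**Figure D2:**
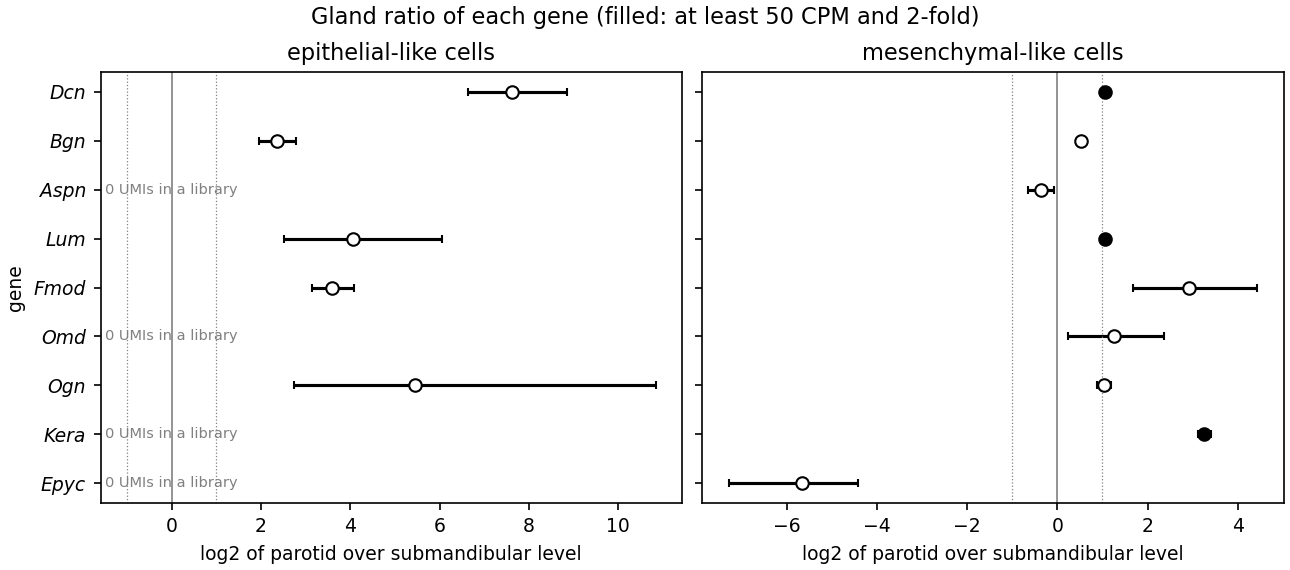
Log2 ratio of the parotid over the submandibular level with its 95% interval, in epithelial-like cells (left) and mesenchymal-like cells (right), for the 7 genes and the chromosome 10 neighbours Kera and Epyc; filled points had at least 50 CPM and a 2-fold difference, and dotted lines mark 2-fold. In epithelium all 5 counted members lie to the parotid side, and in mesenchyme Dcn and Lum lie just past the 2-fold line while Epyc lies far to the submandibular side.

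The genes these proteoglycans work with were read from lists chosen with earlier results of these data known. Partner collagens, whose fibrils the core proteins bind, reached 50 CPM in mesenchyme for 7 of 13 genes, with 2 called higher in parotid, 1 higher in submandibular mesenchyme and a median log2 ratio of -0.44. Col1a1, a chain of type I collagen, had 437 against 218 CPM and Col6a2, a chain of type VI collagen, 75.4 against 34.8 CPM, both higher in parotid (2.004-fold, 1.94 to 2.07, and 2.17-fold, 1.996 to 2.35). Col6a3, another type VI chain, was 4.56-fold higher in submandibular mesenchyme (87.4 against 19.2 CPM). Col1a2 and Col3a1 differed little between the glands (540 against 499.5 CPM, and 829 against 824 CPM). Of 15 growth factor and receptor partners, 2 were tested: the ligand gene Tgfb2 was 2.29-fold higher in submandibular mesenchyme (195 against 85.5 CPM), and Lrp1, an endocytic receptor, had 60.3 and 55.6 CPM, a 1.09-fold difference. Pcolce, an enhancer of procollagen processing and the 1 tested gene of 5 in its list, had 119 and 106 CPM.

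Of 19 genes that build chondroitin and dermatan sulphate chains, only Chst15, a sulphotransferase of chondroitin sulphate, reached 50 CPM, and it did so in parotid epithelium. Its level there was 60.7 CPM, against 28.6 CPM in submandibular epithelium (2.12-fold, 1.94 to 2.33) and 25.03 CPM in parotid mesenchyme (2.43-fold, 2.18 to 2.70). Of the 4 keratan sulphate genes listed, 0 reached 50 CPM in the classes compared. Col2a1, a cartilage collagen gene, was the 1 partner collagen tested between the epithelia, with 96.7 CPM in submandibular and 36.0 CPM in parotid epithelium (2.68-fold, 2.44 to 2.96).

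Within each mesenchyme the 7 genes did not mark the same cells. Over the 10 parotid clusters Dcn had 191 to 864 CPM, lowest in the cluster led by Mpped2, Gdf10 and Msx1 and highest in the cluster led by Chodl and Pitx1. Over the 10 submandibular clusters it ranged from 25.6 CPM (cluster led by Ebf1 and Dlx5) and 27.3 CPM (led by Cited1 and Foxf1) to 606 CPM (led by Fmo1). In 5 of the parotid clusters the Dcn value was above all submandibular ones, and in the other 5 the ranges overlapped. Among the 5 higher ones, the clusters led by Meox2 and by Col8a1 had 610 CPM (584 to 638) and 620 CPM (585 to 658). Their intervals overlapped that of the Fmo1 cluster (582 to 631). Lum ranged from 439 to 1253 CPM in parotid and from 67.7 to 869.9 CPM in submandibular clusters, with its lowest points in the same 2 clusters, the Mpped2 and the Dlx5 one, as Dcn. Bgn ranged from 47.6 to 211 CPM in parotid and from 35.8 to 115 CPM in submandibular clusters. The highest cluster was 4.43-fold above the lowest in parotid, where Dcn had 4.52-fold and Lum 2.85-fold, and 3.21-fold in submandibular mesenchyme, where they had 23.7-fold and 12.8-fold. Its highest submandibular cluster was the Dlx5 one in which Dcn and Lum were lowest.

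Ogn and Aspn were concentrated in few clusters. Ogn ran from 3.40 to 107 CPM in parotid, where the cluster led by Meox2 and Ddit4l held 35.8% of its UMIs and 16.3% of the mesenchymal-like cells. In submandibular mesenchyme it ran from 1.41 to 94.6 CPM, and the cluster led by Tmem100, Ebf2 and Sfrp2 held 29.7% of its UMIs in 5.82% of the cells. Aspn was at 36.2 CPM (28.1 to 46.0) in the parotid Mpped2 cluster, which held 37.4% of its UMIs, and at 44.0 CPM (35.7 to 53.6) in the submandibular Dlx5 cluster, which held 41.7%. It was at 0 UMIs in 2 parotid clusters and 1 submandibular cluster. Fmod and Omd gave at most 13 UMIs in any mesenchymal-like cluster, so their cluster values are imprecise.

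**Figure D3:**
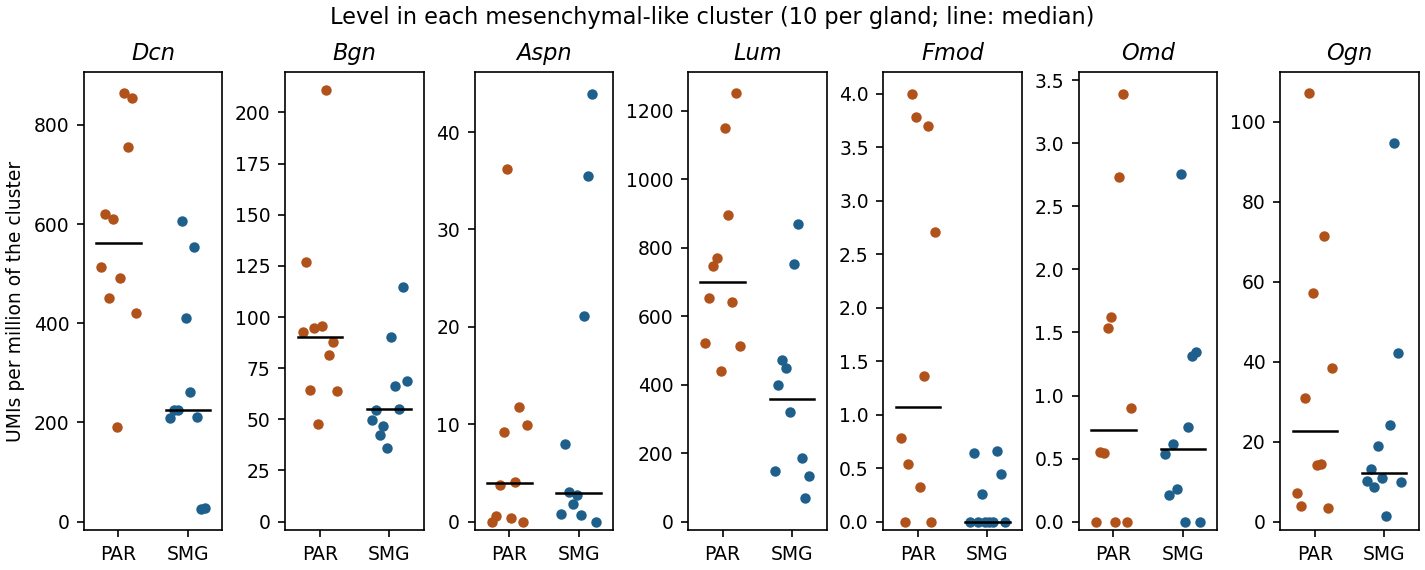
Level of each gene in CPM of the cluster, for 10 parotid (PAR) and 10 submandibular (SMG) mesenchymal-like clusters, with the median as a line and an axis of its own for each gene. The 2 low submandibular points of Dcn are 25.6 and 27.3 CPM, and Aspn and Ogn each have 1 to 3 clusters far above their medians.

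Members that neighbour each other on a chromosome varied together over the clusters, and so did some that lie on different chromosomes. Over the 20 mesenchymal-like clusters, Pearson's r of log2(CPM + 1) was 0.85 for Dcn and Lum, the chromosome 10 neighbours (0.64 within parotid and 0.80 within submandibular clusters). For the chromosome 13 neighbours it was 0.79 for Ogn and Aspn (0.87 and 0.79), 0.63 for Aspn and Omd and 0.61 for Ogn and Omd. Fmod, on chromosome 1, varied with Ogn (0.72, with 0.90 within parotid and 0.66 within submandibular clusters). With Aspn it had 0.52 (0.89 and 0.65). Within parotid clusters both Fmod values were above those of all neighbour pairs, though Fmod had few UMIs there. Fmod and Omd had at most 3 UMIs each in any submandibular cluster. Their values within submandibular clusters thus rest on a few molecules, and those of Omd over all clusters are imprecise too. Between the chromosome 10 and chromosome 13 genes r was from -0.28 to 0.14, such as -0.07 for Dcn and Ogn and -0.28 for Lum and Aspn. Bgn, on the X chromosome, joined Dcn in parotid (0.74) and not in submandibular clusters (-0.60). The points are clusters of 2 libraries that share depth and scaling within a library, so these values describe them and carry no test.

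**Figure D4:**
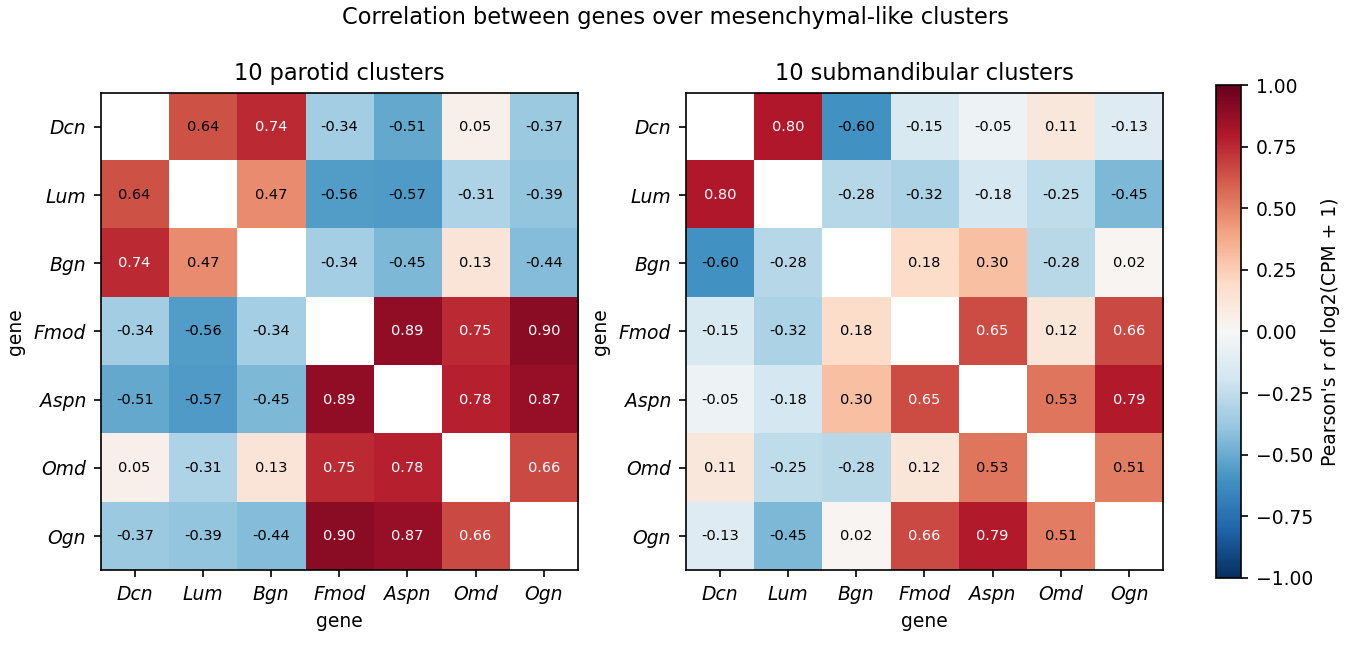
Pearson's r of log2(CPM + 1) between genes over the 10 parotid (left) and the 10 submandibular (right) mesenchymal-like clusters. Dcn with Lum, at 0.64 and 0.80, and Ogn with Aspn, at 0.87 and 0.79, are high in both panels. Fmod with Ogn is at 0.90 and 0.66, from few Fmod UMIs, with at most 3 in any submandibular cluster. Dcn with Bgn is 0.74 on the left and -0.60 on the right.

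The chromosome 13 set lies in the order Aspn (49544443 to 49567565), Omd (49582462 to 49592822) and Ogn (49608046 to 49624501) on the plus strand of GRCm38, 14.9 and 15.2 kb apart, with Ecm2 another 11.7 kb before Aspn. The 250 bases before the RefSeq start of these 3 genes (GRCm38.p6, plus strand, chr13:49544193-49544442, chr13:49582212-49582461 and chr13:49607765-49608014) are shown because the genes varied together over clusters. For Omd this rests on few UMIs. Capitals mark each E-box, the letters CANNTG on either strand, which basic helix-loop-helix factors such as scleraxis can bind.
Aspn: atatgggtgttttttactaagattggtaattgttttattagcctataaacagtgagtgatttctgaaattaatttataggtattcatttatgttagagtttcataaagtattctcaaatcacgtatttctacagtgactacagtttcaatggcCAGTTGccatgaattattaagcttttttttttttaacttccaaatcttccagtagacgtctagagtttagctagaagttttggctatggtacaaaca
Omd: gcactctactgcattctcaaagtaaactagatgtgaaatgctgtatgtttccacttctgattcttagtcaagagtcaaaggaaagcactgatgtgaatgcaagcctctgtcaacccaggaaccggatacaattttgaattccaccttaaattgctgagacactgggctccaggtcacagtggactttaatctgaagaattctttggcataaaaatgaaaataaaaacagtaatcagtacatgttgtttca
Ogn: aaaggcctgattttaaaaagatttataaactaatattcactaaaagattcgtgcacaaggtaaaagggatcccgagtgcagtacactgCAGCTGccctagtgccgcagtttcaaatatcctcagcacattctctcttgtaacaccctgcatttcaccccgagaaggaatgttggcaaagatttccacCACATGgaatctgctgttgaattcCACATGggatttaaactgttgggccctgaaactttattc
Ogn had 3 E-boxes, 162, 63 and 39 bases before the start, Aspn had 1 and Omd had 0. Of 32851 RefSeq promoter windows of this length, 66.2% held at least 1 E-box. TATAAA, the TATA box, was found in the Aspn and Ogn windows (2 matches each, from 178 to 229 bases before the start, overlapping on opposite strands in Ogn) and in 12.4% of all windows. The AP-1 letters TGANTCA (6.75% of all windows) and the GC box GGGCGG (32.7%) matched none of the 3. The windows of Aspn, Omd and Ogn had 30.0%, 38.4% and 42.0% G and C, against a median of 52.4% over all windows. For Bgn the window (64.4% G and C) held 1 E-box and 3 GC boxes, and for Fmod (51.2%) it held 1 E-box. Dcn and Lum were not matched in the promoter table.

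Among 4407 genes compared, those whose cluster pattern was most like a member's were named for the 4 members with enough UMIs. For Dcn the closest was Kera (r = 0.89 over 20 clusters), then Nptn and Map1lc3a (0.82 and 0.80). For Lum, Kera again came first (0.83, but 0.47 within parotid clusters), followed by Pros1 and Dynlt1c (0.77 and 0.76). Bgn was closest to Mmp2, a gelatinase gene (0.85), and then to Ifitm1 and Calu (0.82 and 0.81). Ogn was closest to Scx, which encodes the tendon factor scleraxis (0.76), to Gas2 (0.76) and to the elastic fibre gene Fbln5 (0.74). The 7 members and their relatives were left out of the clustering, whereas these other genes were not.

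In single thinned cells, Lum was found more often in cells with a Dcn UMI than in those without, and Ogn more often in cells with an Aspn UMI. Pairs with Omd or Fmod had too few cells to compare. Of parotid mesenchymal-like cells with a Dcn UMI, 78.0% (76.3 to 79.5) had a Lum UMI, compared with 63.3% (60.3 to 66.1) of those without. In submandibular cells the shares were 57.9% (55.4 to 60.3) and 24.6% (22.9 to 26.4). Ogn was found in 23.6% (14.4 to 35.1) of the 72 parotid cells with an Aspn UMI and in 9.80% (8.86 to 10.8) of the others, and in 27.5% (18.6 to 37.8) of 91 submandibular cells and 4.19% (3.59 to 4.86) of the others. For Dcn, cells with and without an Ogn UMI had overlapping intervals, at 69.9% (65.0 to 74.5) and 71.5% (69.9 to 73.0) in parotid and 40.6% (33.6 to 47.9) and 39.8% (38.2 to 41.3) in submandibular mesenchyme.

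All 5 members counted in epithelium were higher in parotid than in submandibular epithelial-like cells. No member reached 50 CPM in either epithelium, so 0 of 7 were tested, while 2.85% of 3015 genes were called higher in parotid, 2.09% higher in submandibular epithelium and 4.94% in either direction. Under TMM scaling, which moved all log2 ratios by 0.12, the share of calls higher in submandibular epithelium went from 42.3% to 54.2%. As sizes alone, Dcn was 198-fold (99.6 to 460) higher in parotid epithelium, Fmod 12.1-fold (8.82 to 16.9), Lum 16.6-fold (5.68 to 66.1), Bgn 5.16-fold (3.89 to 6.88) and Ogn 43.4-fold (6.67 to 1825), the last from 15 against 1 UMI. Aspn and Omd had 0 UMIs in both. These folds rest on the epithelial-like class. A UMI of the chemokine gene Cxcl14, with which Dcn is compared below, was in 45.1% of parotid and 0.940% of submandibular epithelial-like cells. The part of this difference in the folds was not tested. All kept barcodes of the 2 libraries include 7 parotid and 22 submandibular mesenchymal-like cells. Over these barcodes the log2 ratio of submandibular over parotid went from -7.63 to -4.18 for Dcn. For Lum it went from -4.05 to 0.20 (-0.20 to 0.61), an interval that includes no difference. With a minimum of 10 CPM, 3 members were called higher in parotid (Dcn, Bgn and Fmod), as were 296 of 7716 genes, and 218 genes were called higher in submandibular epithelium. Among cells with no Sox10 UMI, an alternative chosen after the data were seen, Dcn was 171-fold, Fmod 10.4-fold and Bgn 4.74-fold higher in parotid.

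The mesenchymal transcripts reached very different shares of their mesenchymal level in parotid epithelial-like cells. The level of Dcn there was 7.27% (6.66 to 7.92) of that in parotid mesenchymal-like cells, and that of Bgn 11.7% (9.83 to 13.9). For Lum the value was 0.226% (0.143 to 0.339), for Ogn 2.76% (1.54 to 4.58), for Col3a1 0.273%, for Col1a1 0.380%, for Col1a2 0.910% and for Prrx1, a mesenchymal homeobox gene, 0.0164%. Over the 10 mesenchymal markers the range was 0.0164% to 60.6%, with Vim at 6.88%, Snai2 at 35.1% and Meox1 at 60.6%. Dcn thus lay above the 3 collagens, Lum, Ogn and Prrx1, close to Vim, and below Bgn, Snai2 and Meox1. In submandibular epithelium Dcn had 0.0769% of its mesenchymal level and Bgn 3.27%. The parotid shares of Dcn and Bgn were lower under the stricter cell filter, with log2 ratios of mesenchyme over epithelium of 4.18 and 3.51.

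The ratio of Lum to Dcn UMIs also differed between these cells and mesenchyme. There were 23 Lum and 547 Dcn UMIs in parotid epithelial-like cells, 0.0420 (0.0264 to 0.0638) Lum UMIs for each Dcn UMI. In parotid mesenchymal-like cells the value was 1.35 (1.32 to 1.38), and in the 7 mesenchymal-like cells of the parotid epithelium library, with 45 Lum and 16 Dcn UMIs, it was 2.81 (1.56 to 5.33). The 118 epithelial-like cells of the parotid mesenchyme library had 48.3 CPM of Dcn but also 38.9 CPM of Lum, a ratio of 0.804 (0.520 to 1.24), and their 10 mesenchymal markers summed to 335 CPM. Of the 332 parotid epithelial-like cells with a Dcn UMI, 8.73% (5.93 to 12.3) had a UMI of Col1a1, Col1a2, Col3a1 or Lum, compared with 6.21% (5.01 to 7.60) of the 1417 without one.

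Dcn in parotid epithelium was higher with higher Cxcl14, a chemokine gene of surface and duct epithelia. It had 9.15 CPM (7.09 to 11.6) in the 960 cells without a Cxcl14 UMI. Cells with Cxcl14 were divided into 3 groups of 263 cells by their Cxcl14 level, and Dcn had 30.0 CPM (23.0 to 38.5), 78.4 CPM (66.8 to 91.5) and 143 CPM (126 to 162) from the lowest to the highest group. The last was 15.7-fold (11.9 to 20.8) above the cells without Cxcl14, and none of the 4 intervals overlapped. The ratio was 11.1 in cells thinned before they were binned and 11.7 with at least 10 Cxcl14 UMIs against none.

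The share of cells with a Dcn UMI followed the same order: 5.94% (4.53 to 7.62), 16.3% (12.1 to 21.4), 38.0% (32.1 to 44.2) and 50.2% (44.0 to 56.4). In cells thinned to 3000 UMIs it was 3.50%, 7.81%, 20.4% and 30.7%. The summed level of the 10 mesenchymal markers was 118, 120.5, 94.9 and 80.1 CPM, and without Vim it was 35.2, 39.2, 28.6 and 33.0 CPM. The number of markers at 0 UMIs was 0, 3, 3 and 4, in bins that differ in size. Col3a1 had 5, 10, 6 and 9 UMIs (0.683, 4.84, 2.90 and 5.04 CPM), fewer per UMI in cells without Cxcl14, and its part in the result was not tested beyond the next value. Without the cells that held a Col1a1, Col1a2, Col3a1 or Lum UMI the ratio was 15.7. Most Dcn-bearing cells held few molecules: 202 of 332 had 1 UMI, 79 had 2 and the highest had 10.

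Dcn was low where Sox10 was present. Sox10 encodes a transcription factor of neural crest and of the distal buds of salivary epithelium. The 193 parotid epithelial-like cells with a Sox10 UMI held 6 Dcn UMIs (3.27 CPM, 1.198 to 7.11), and the 1556 cells without one held 541 (47.4 CPM, 43.5 to 51.6), a 14.5-fold difference (6.63 to 39.8). Under the stricter cell filter it was 26.4-fold (7.23 to 219) from 2 Dcn UMIs in cells with Sox10, and after thinning 12.9-fold (2.30 to 512) from 1. The 65 cells with at least 2 Sox10 UMIs held 0 Dcn UMIs. Against the level of 3 UMIs, the cells without Sox10 were at least 10.7-fold higher. Split by both genes, Dcn had 85.6 CPM (78.1 to 93.7) with Cxcl14 and no Sox10, 13.5 CPM (4.37 to 31.4) with both, 11.3 CPM (8.72 to 14.3) with neither and 0.682 CPM (0.0173 to 3.801) with Sox10 alone. Only 34 cells had both, so that value rests on 5 UMIs. Among cells with no Sox10 UMI, Dcn still went from 11.3 CPM without Cxcl14 to 33.4, 79.6 and 143 CPM over the 3 groups.

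Bgn and Fmod were followed over the same bins. Bgn went from 3.41 CPM (2.21 to 5.04) without Cxcl14 to 9.19, 18.4 and 33.0 CPM (25.2 to 42.6), each bin above the one before, with overlapping intervals between neighbours among the 3 groups with Cxcl14. Fmod was level at 12.6, 13.1 and 14.5 CPM through the middle group and had 31.4 CPM (23.7 to 40.7) in the highest group. Both were low in cells with a Sox10 UMI, Bgn with 2.18 against 12.02 CPM and Fmod with 1.63 against 17.7 CPM.

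**Figure D5:**
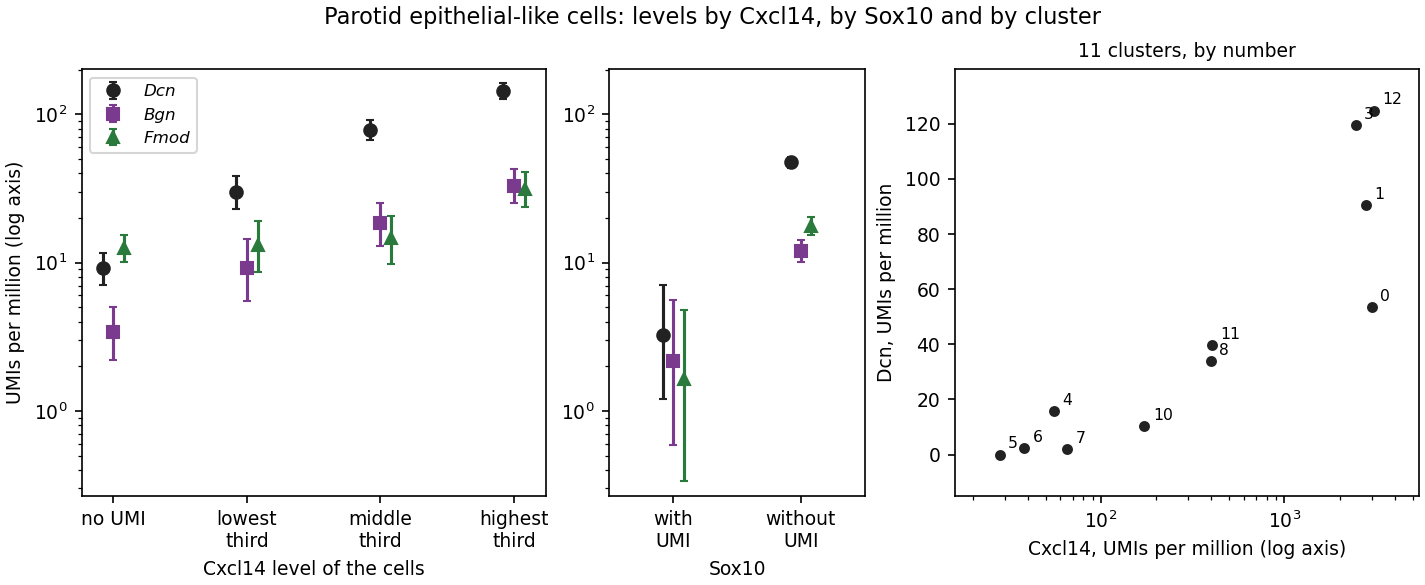
Parotid epithelial-like cells: levels of Dcn, Bgn and Fmod by Cxcl14 level (left) and by Sox10 UMIs (middle), in CPM on a log axis with 95% Poisson intervals, and Dcn against Cxcl14 in 11 clusters (right, Cxcl14 on a log axis). Dcn goes from 9.15 to 143 CPM over the 4 Cxcl14 bins, and the 4 clusters above 2000 CPM of Cxcl14 are the 4 with the most Dcn.

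By cluster, Dcn was highest in the parotid epithelial-like cluster led by Gjb6, Gjb2 and Lmo1 (125 CPM, 101 to 152), followed by the one led by Gjb2 and Anxa8 (119.5 CPM) and the one led by Lmo1 and Irx2 (90.5 CPM). Connexin genes Gjb2 and Gjb6 encode gap junction proteins of stratified and ductal epithelia. The cluster led by Lhx2 and Shh had 53.4 CPM. Dcn was lowest in the 2 Sox10 clusters, led by Igfbp3 and Ngfr (2.33 and 2.03 CPM), and in the 82 cells led by Gabrp, Cldn3 and Krt7, which held 0 UMIs. Over the 11 clusters, which share a library, Dcn and Cxcl14 had a Pearson's r of 0.92 and a Spearman's rho of 0.92, and Dcn and Bgn of 0.93 and 0.88. With Col3a1 the values were 0.40 and 0.46. In the 10 parotid mesenchymal-like clusters r was 0.69 for Dcn and Cxcl14 and 0.90 for Dcn and Col3a1. Cxcl14 was among the genes clustered, and macrophage genes C1qb and Tyrobp led with S-phase genes in 1 epithelial-like cluster, in which Dcn had 34.0 CPM.

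Most Lum UMIs in parotid epithelium lay in the Lhx2 and Shh cluster, which was singled out after its values were seen. That cluster had 20 of the 23 Lum UMIs, in 12 of its 93 cells (12.9%, 6.85 to 21.5) with at most 4 in a cell, a level of 26.7 CPM (16.3 to 41.2). The other 1656 cells had 3 Lum UMIs (0.240 CPM, 0.0495 to 0.702). Its 10 mesenchymal markers summed to 136 CPM, the second highest of the 11 parotid epithelial-like clusters (45.9 to 149 CPM), with Col3a1, Pdgfra, Twist1, Prrx1 and Meox1 at 0 UMIs. Only 1 to 42 UMIs of each of these genes were counted in the whole class, so such zeros say little at this depth, and the part of mesenchymal transcripts in the Lum value was not tested. It also had the highest Bgn of the parotid epithelial-like clusters, 32.0 CPM (20.5 to 47.7), and 0 Fmod UMIs.

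Fmod was spread over other epithelial clusters. In parotid its highest levels were 34.3 CPM (25.5 to 45.3) in the Gjb2 and Anxa8 cluster and 29.3 CPM in the Gjb6 cluster, and it had 27.0 CPM in the cluster led by Rprm and Foxe1, where Dcn had 15.7 CPM. In submandibular epithelium 51.0% of Fmod UMIs lay in the cluster led by the basal genes Krt15 and Krt14, which held 19.4% of the cells and had 5.77 CPM (3.73 to 8.51). Bgn had 4.15 CPM there, level with the 4.10 CPM of the cluster led by Fas and Cyr61, and the 8 Dcn UMIs of submandibular epithelium were too few to rank clusters.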

How the data were processed

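Reads were turned into whole-number UMI counts per gene and cell by the authors with Cell Ranger 2.1.1 on mm10, per the submitters' processing notes, and the deposited counts were used without change. The filter asked for 500 or more detected genes in a barcode and no more than 10% mitochondrial UMIs. Each library was clustered with scanpy 1.11.5 (2000 variable genes, 30 principal components, 15 neighbours, Leiden resolution 0.8 with igraph 0.11.9). A cluster took the name of the marker list, of 11, with the highest mean level relative to each marker's highest cluster, if at least 3 markers were in at least 25% of its cells. This score was set after a first score had misnamed epithelial clusters. Clusters with a median of under 1% mitochondrial UMIs stayed unnamed unless their best list was the erythroid one. Doublets were not removed in the main values, and the barcodes with the highest Scrublet scores (0.8% per 1000 barcodes) were left out in an alternative.

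UMIs were summed per class and given as CPM with exact Poisson intervals. Ratios had exact conditional binomial intervals, shares exact Clopper-Pearson intervals, and the limit for a count of 0 was 3 UMIs. These intervals cover counting error only, and the script was checked on simulated data. Library totals were 14004908, 39621166, 30815632 and 32036980 UMIs for parotid epithelium, submandibular epithelium, parotid mesenchyme and submandibular mesenchyme. With 1 library in each group, no test across samples was possible, and a gene was called by size only. Alternatives were stricter cell filters, another Leiden resolution, all cells of a library, TMM scaling with edgeR 4.0.16, other CPM minimums, thinning to 3000 UMIs and other Cxcl14 and Sox10 limits.

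The named genes were all members in each class of at least 20 cells, up to 4 genes with at least 50 CPM and the largest ratio from each other list, and the 3 genes most like a member over clusters. Members and lists were chosen with earlier results of these data known. Gene positions are from GENCODE M21 and promoter windows from RefSeq, both on GRCm38. The marker Mymk was not matched by symbol.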

Additional observations from a re-analysis of the deposited data

How the results depend on the processing

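With every kept barcode in place of the named classes, the Lum log2 ratio of submandibular over parotid epithelium went from -4.05 to 0.20 (-0.20 to 0.61). Its sign changed, but the interval includes no difference. No other log2 ratio of a member changed sign in the alternatives run. The count of called members in mesenchyme between glands, 2 in the main setting, was 1 with the stricter cell filter (1000 or more genes, up to 5% mitochondrial UMIs). It was 1 with clusters weighted equally, for which no count over all genes is given. With a minimum of 10 CPM it was 3, and with no CPM minimum beyond 3 UMIs it was 5. Between the epithelia it was 0 in the main setting, 5 with no CPM minimum and 3 with a minimum of 10 CPM. Mesenchyme against epithelium in the parotid gland went from 3 to 7 with no CPM minimum (6 higher in mesenchyme, 1 in epithelium). At 10 CPM it was 5 (4 and 1). In the submandibular gland it went from 3 to 7 with no minimum (6 and 1). Of all genes, 2099 of 15564 with no minimum and 296 of 7716 at 10 CPM were called higher in parotid epithelium. In parotid mesenchyme these were 1463 of 16236 with no minimum, 328 of 8363 at 10 CPM and 109 of 3250 with the stricter cell filter. Higher in mesenchyme were 2668 of 15894 (no minimum) and 966 of 8359 (10 CPM) in parotid, and 4974 of 16635 (no minimum) in submandibular glands. Of the same genes, 2329 and 705 in parotid and 2032 in submandibular glands were called higher in epithelium. The Dcn ratio by Cxcl14 level, 15.7, was 11.1 in thinned cells and 11.7 with at least 10 Cxcl14 UMIs. The Dcn ratio by Sox10, 14.5, ranged from 10.7 (2 or more Sox10 UMIs, against the level of 3 Dcn UMIs) to 26.4. Leaving out the highest doublet scores, or clustering at resolution 1.6, moved no log2 ratio of a member out of its interval (26 of 26 each). TMM scaling moved 3 of 26, all kept barcodes 8 of 26 and the stricter cell filter 10 of 26. Among the moved ratios were those of Aspn and Omd between mesenchyme and epithelium, with 0 UMIs in epithelium. They are set against the level of 3 UMIs, so they also move with the total UMIs of the epithelial cells kept. The cause of the other shifts was not tested. No paired analysis was possible because each group is 1 library and the labels carry no replicate numbers. Depth limits Omd, Fmod in mesenchyme and in submandibular epithelium, and Ogn, Lum and Aspn in both epithelia. It also limits Dcn in submandibular epithelium. Each of these values rests on under 50 UMIs.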
